A study of Mus musculus with 14 samples.

Results

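The glycolysis and hypoxia response genes are 35 genes that encode hypoxia-inducible factor (HIF) and the enzymes that set its stability, the enzymes of glycolysis, and well known HIF targets. They were taken by gene symbol from a table of 55414 genes measured in primary bone marrow-derived macrophages (pBMDMs). No measured value served as a criterion, but the list was chosen with earlier results of these data known. All 35 passed edgeR's filter on low counts, as did 12851 genes of the whole table. By role, 4 members encode HIF and its oxygen-dependent control, 4 bring glucose into the cell or phosphorylate it, 8 belong to upper glycolysis, 5 to lower glycolysis and 3 to the fate of pyruvate and lactate, and 11 are other HIF targets. Aldoa was listed under a pair of gene identifiers, of which 1 had no counts in any library, and the other is used here.

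Wild-type pBMDMs from C57BL/6N mice, differentiated with M-CSF, received either fresh medium or a filtered supernatant of a fibroblast line, Pfa1 mouse embryonic fibroblasts (MEFs), for 24 h, and the 3′ ends of their transcripts were sequenced. Pfa1 MEFs are a single line in which 4-hydroxytamoxifen (4OHT) deletes the gene of GPX4, the enzyme that removes lipid peroxides, and so causes ferroptosis. The supernatants came from untreated MEFs (ctrl), from MEFs given 4OHT (4OHT, labelled Tam, the ferroptotic supernatant), from MEFs given 4OHT with the ferroptosis inhibitor Ferrostatin-1 (4OHT+Fer1), and from MEFs given Ferrostatin-1 alone (Fer1). There were 3 libraries of each supernatant and 2 of fresh medium (medium), 14 in all. The ctrl, Fer1 and 4OHT+Fer1 supernatants are called live supernatants here, and together they had 9 libraries. For the macrophages the labels name DMEM and the study's methods RPMI, media whose usual glucose contents differ, and the study's materials list high-glucose DMEM, the medium type named for the MEFs. The glucose left in the supernatants and the oxygen of the cultures are not given in the sources used here. Whether 4OHT or Ferrostatin-1 reached the macrophages with the supernatant was not tested.

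HIF is a transcription factor with an α subunit that is made continuously and, where oxygen is ample, destroyed: prolyl hydroxylases of the Egln family mark it and the von Hippel-Lindau protein hands it to the proteasome. Because this control acts on the protein, the mRNA of Hif1a need not follow HIF activity, and the targets are the usual readout. HIF raises the glucose transporter, most glycolytic enzymes, lactate dehydrogenase and the kinase that keeps pyruvate out of mitochondria, and macrophages are known to use this program in low oxygen and after inflammatory stimulation.

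The libraries held between 7823051 and 11052352 counts, so that 3 counts corresponded to between 0.272 and 0.381 CPM (counts per 1000000 counts of a library, scaled here by edgeR's TMM factors), a limit that covers counting error only. All 8 macrophage markers were detected in every library. Of 9 fibroblast markers, summed levels were between 15.5 and 121 CPM, with Thy1 detected in 1 library and the collagen genes Col1a1 and Col1a2 in all 14. Lymphocyte and dendritic cell lists summed to at most 0.531 and 1.49 CPM. The libraries ctrl 3 and 4OHT+Fer1 1 stood apart from their own groups: over all tested genes their median absolute deviation from the group mean was 0.29 on the log2 scale in each, the highest of the 14. Counts of members that change without both libraries are given beside the results, an alternative chosen after the data were seen.

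With edgeR, no member passed the test between the ferroptotic and the live supernatants, and 6 members passed it between fresh medium and ctrl supernatant. In 4OHT against ctrl, 0 of 35 members passed an adjusted p of 0.05 (quasi-likelihood test of edgeR, Benjamini-Hochberg adjusted over all tested genes), where 1.49% of all tested genes passed. At an unadjusted p under 0.05 there were 7 members, 1 higher and 6 lower in 4OHT, against 10.8% of all genes. DESeq2 called 0 members, and 405 genes of the whole table. The median log2 fold change of the members was -0.22, that of all tested genes 0.01, and 25 of 35 members had a negative value. For 26 of the 35, the 95% interval of the fold change lay within a factor of 2 in either direction, and for the other 9 it reached past 2-fold.

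In 4OHT against 4OHT+Fer1, whose MEFs differ in ferroptosis and in Ferrostatin-1, effects that cannot be told apart in this comparison, edgeR called 0 members, with 1.35% of all genes called. DESeq2 called 1 member, Hif1a, and 392 genes of the whole table, where edgeR called 174. With edgeR, 4 members had an unadjusted p under 0.05, against 11.8% of all genes. In 4OHT against the mean of the live supernatants, edgeR called 0 members and 2.95% of all genes. DESeq2 called 2 members (Hif1a and Ldha) and 669 genes of the whole table, where edgeR called 379. With edgeR, 8 members had an unadjusted p under 0.05, against 13.8% of all genes. Without 4OHT 3, edgeR called 1 member, Hif1a, in each of these comparisons, while calls over all genes rose as well, to 469 and 544 of 12782. Without ctrl 3 and 4OHT+Fer1 1, edgeR called 4 members in this last comparison, all lower in 4OHT: Aldoc, Pgk1, Slc16a3 and Higd1a, while calls over all genes rose as well, to 728 of 12738. Both ferroptotic comparisons share the 4OHT libraries, and several others share ctrl, so their values stand side by side and are not independent.

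The remaining comparisons among the supernatants gave no calls among the members. In 4OHT+Fer1 against Fer1, 0 members and 0.0233% of all genes were called, with 4 members at an unadjusted p under 0.05 (2.07% of all genes). In 4OHT+Fer1 against ctrl, 0 members and 0.0311% of all genes were called, with 6 members at an unadjusted p under 0.05 (4.31% of all genes). In Fer1 against ctrl, 0 members and 0% of all genes were called, and 0 members had an unadjusted p under 0.05 (1.14% of all genes). The effect of 4OHT without Ferrostatin-1, set against its effect with Ferrostatin-1 in an interaction term, was called for 0 members and 0.0311% of all genes, and 1 member, Ldha, had an unadjusted p under 0.05 (6.2% of all genes). DESeq2 called 0 members in each of these 4 comparisons.

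In medium against ctrl, 6 members were called by edgeR, against 10.9% of all tested genes. Lower in medium were 5 members, Slc2a1, Aldoc, Pgk1, Ldha and Pdk1 (5.28% of all genes were lower), and higher was 1, Hk2 (5.58% of all genes were higher). With the study's added limit of an absolute log2 fold change above 1, 3 members remained, Slc2a1, Aldoc and Hk2, against 7.79% of all genes. The median log2 fold change of the members was -0.30, with 26 of 35 negative, and that of all genes 0.01. DESeq2 called the same 6 members, and 1675 genes of the whole table. The count rested on the replicate numbers and on the 2 medium libraries. Without the replicate number in the model it was 1 (Aldoc), while calls over all genes fell as well, to 523 of 12851. With 1 medium library left out, alone or with its replicate number, fewer members and fewer genes of the whole table passed. Such fits hold no spread between medium libraries. With single libraries or replicate numbers left out, log2 fold changes ran from -1.76 to -1.40 for Aldoc and from 0.92 to 1.11 for Hk2. They ran from -1.35 to -0.84 for Slc2a1, from -1.07 to -0.83 for Pgk1, from -1.10 to -0.86 for Ldha and from -1.15 to -0.79 for Pdk1. Without ctrl 3 and 4OHT+Fer1 1 the count was 12, the same 6 genes and Gapdh, Gpi1, Higd1a, Pgam1, Slc16a3 and Tpi1. Of the 12, Hk2 alone was higher in medium, while calls over all genes rose as well, from 1396 of 12851 to 1927 of 12738.

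**Figure D1:**
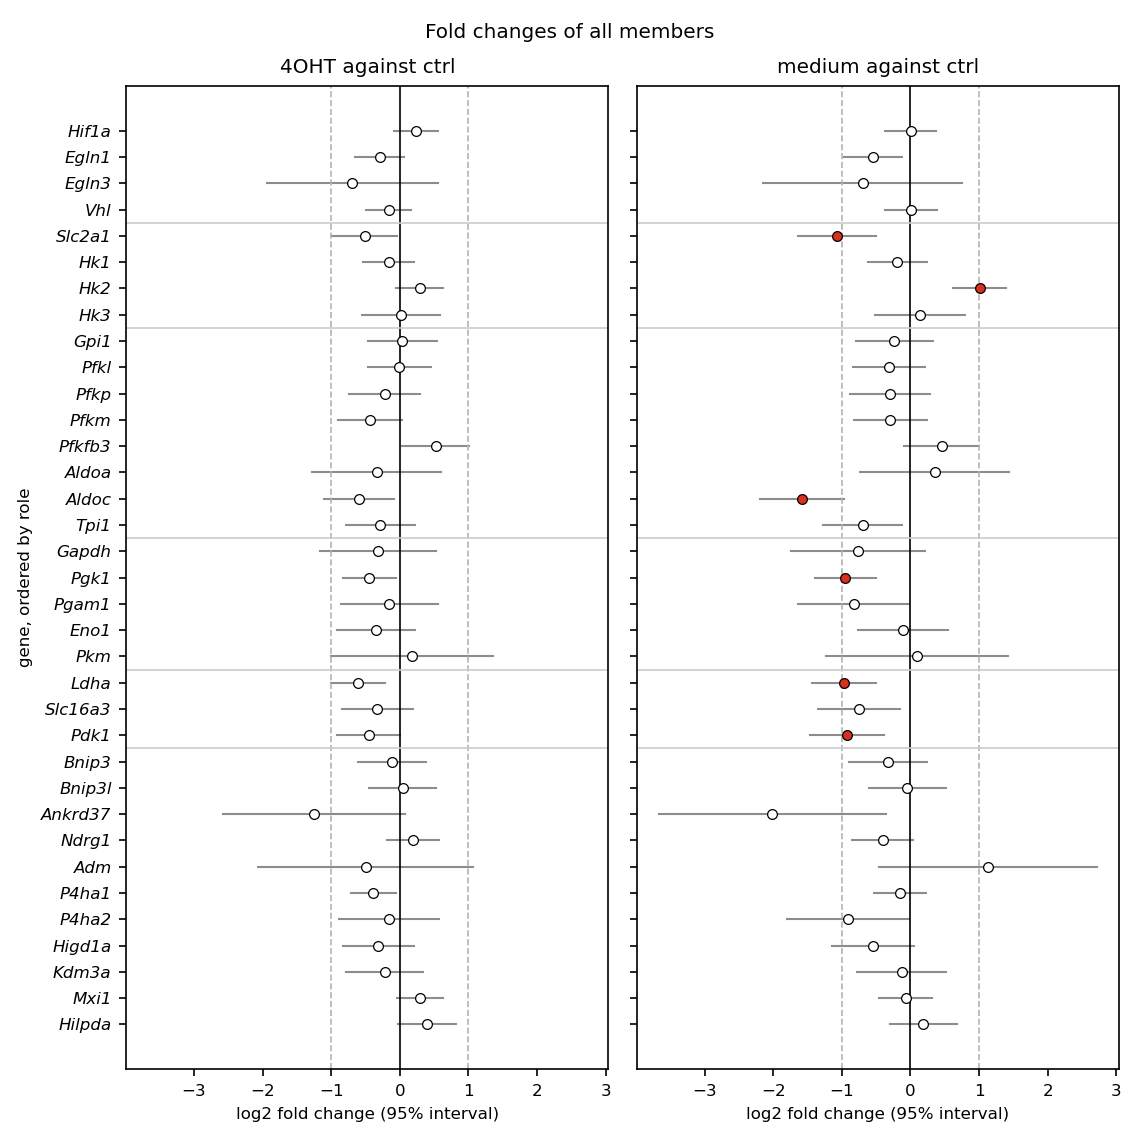
Log2 fold change (x axis) of each of the 35 members (y axis, ordered by role) in 4OHT against ctrl and in medium against ctrl. Points are edgeR estimates, lines their 95% intervals, dashed lines a fold change of 2, and filled points the members at an adjusted p under 0.05: none on the left, and 6 on the right with Hk2 the only one above 0.

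In 4OHT against medium, 1 member was called, Hk2, against 4.26% of all genes. DESeq2 called 2 members (Hk2 and Aldoc) and 829 genes of the whole table, where edgeR called 548. With edgeR, the count was 3 (Hk2, Aldoc and Ndrg1) without ctrl 3 and 4OHT+Fer1 1, where 1010 of 12738 genes were called. Without the replicate number in the model the count was 0, and 104 of 12851 genes were called. Leaving out a single library moved it between 0 and 2. It was 2 without ctrl 3 or without 4OHT+Fer1 1 and 1 without ctrl 1, and 0 for every other library left out.

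Summed marker levels of dividing cells and of a neutrophil list also differed between the groups. Those of macrophages were higher in every medium and 4OHT library than in every ctrl and Fer1 library. In 4OHT+Fer1 they overlapped with medium and 4OHT. The 8 cell cycle markers, all detected in every library, summed to between 226 and 258 CPM in medium, between 330 and 737 CPM in 4OHT, and between 1107 and 1441 CPM in the live supernatants. The 8 macrophage markers summed to between 28488 and 35396 CPM in medium and between 28910 and 44624 CPM in 4OHT. They summed to between 19303 and 28440 CPM in ctrl, 22092 and 28399 CPM in Fer1, and 23049 and 29669 CPM in 4OHT+Fer1. Most of this sum was Lyz2, at 13967 to 36193 CPM over all libraries, and the next, Csf1r, reached at most 4783 CPM. The list of 7 neutrophil and granulocyte precursor markers summed to between 35.2 and 48.6 CPM in medium and between 2.87 and 25.5 CPM in the supernatants, with Ly6g and Elane at 0 in every library. The part of these differences in the members' levels was not tested, and in bulk RNA fewer cells of a type and less RNA per cell cannot be told apart.

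**Figure D2:**
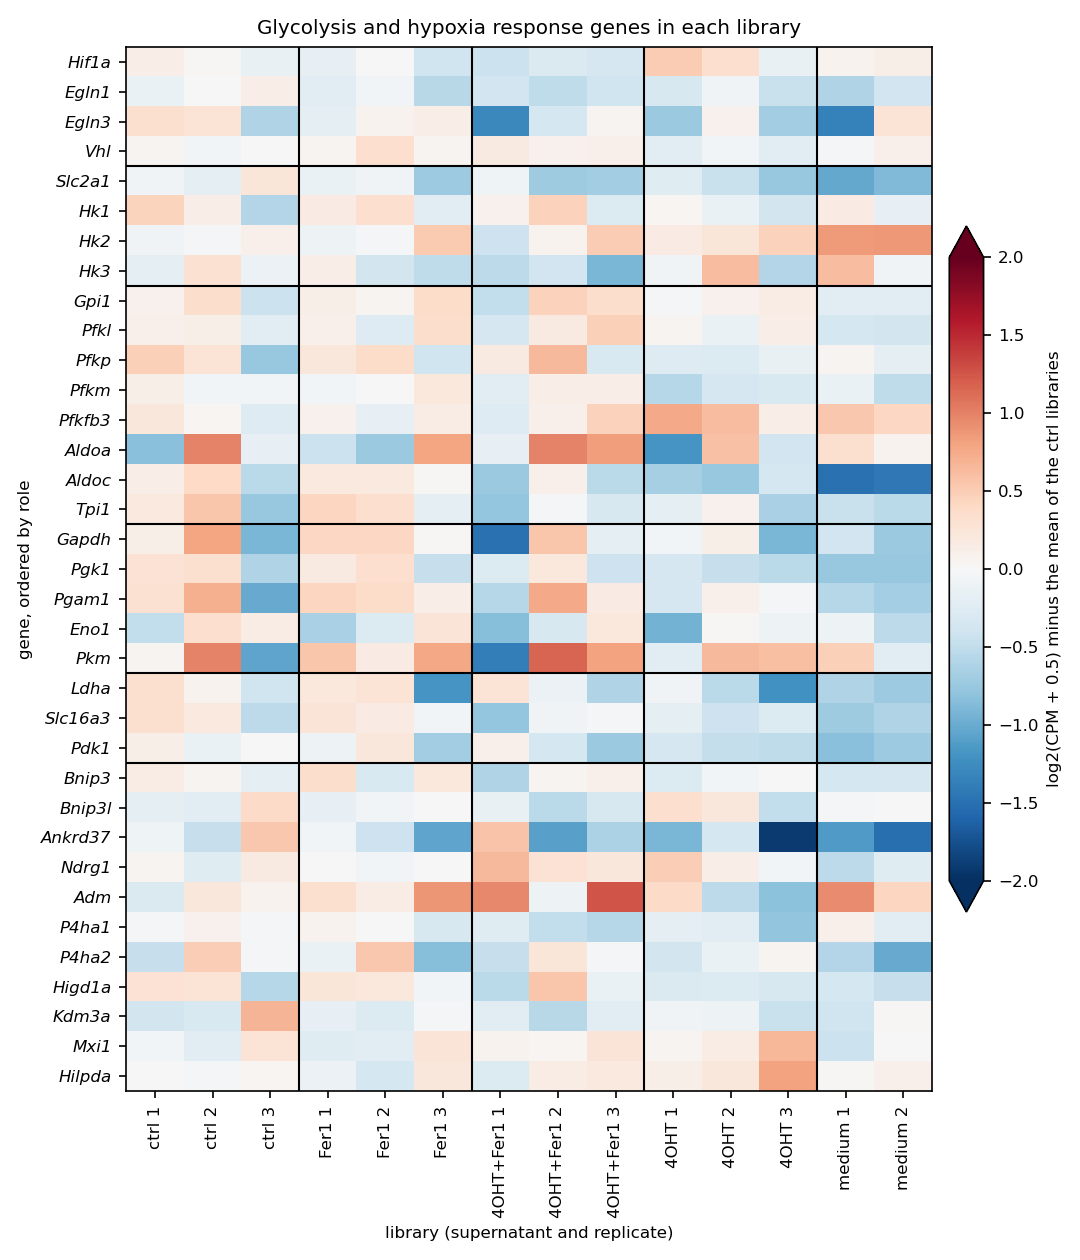
Each of the 35 members (rows, ordered by role) in each of the 14 libraries (columns, by supernatant and replicate), as log2(CPM + 0.5) minus the mean of the ctrl libraries, with red above and blue below that mean. The medium columns are blue at Slc2a1, Aldoc, Pgk1, Ldha and Pdk1 and red at Hk2, and the columns ctrl 3 and 4OHT+Fer1 1 are blue over most glycolytic enzymes.

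Most promoters of the members hold the letters of the HIF core. HIF is known to bind the letters ACGTG or GCGTG, and both strands of 300-base windows around RefSeq gene starts (GRCm38.p6) were searched for them, so that the palindrome CACGTG counts as a pair of overlapping matches. A window was found for 33 of 35 members, not for Bnip3l and Ndrg1. At least 1 match stood in a window of 30 of these 33 (90.9%), against 46.7% of the 27025 genes in the table. This share per gene grows with the number of windows a gene has. Per window, at least 1 match stood in 40 of their 51 windows (78.4%), against 43.8% of all 32851 windows. At least 2 stood in 28 of the 51 (54.9%), against 20.6%. Some windows of a gene overlap and share matches. All 6 members called in medium against ctrl held a match, as did 24 of the 27 others with a window (88.9%). The median share of G and C was 63.0% in the members' windows and 52.7% in all windows, and the comparison was not matched for it. The members were listed in part as well known HIF targets, so an excess of the letters follows in part from the choice of the list. A match is a description of the letters in the window.

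The windows of 4 called members are shown, 3 that were lower in medium and Hk2, which was higher, because members of both directions carry the letters. All run 5′ to 3′ on the strand of the gene, with every base of a match in capitals. The window of Slc2a1 is chr4:119108495-119108794 on the plus strand, that of Hk2 chr6:82774405-82774704 on the minus strand, that of Pgk1 chrX:106186850-106187149 on the plus strand and the first of Ldha chr7:46845554-46845853 on the plus strand. Slc2a1, Hk2 and Pgk1 hold 2 matches each. Ldha holds 7, among them both strands of a pair of palindromes.
Slc2a1: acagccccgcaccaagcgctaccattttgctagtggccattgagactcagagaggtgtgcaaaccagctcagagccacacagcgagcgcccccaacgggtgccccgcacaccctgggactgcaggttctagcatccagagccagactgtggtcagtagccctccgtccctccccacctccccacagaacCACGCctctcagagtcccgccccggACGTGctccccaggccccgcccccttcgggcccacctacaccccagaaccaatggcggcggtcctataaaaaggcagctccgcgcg
Hk2: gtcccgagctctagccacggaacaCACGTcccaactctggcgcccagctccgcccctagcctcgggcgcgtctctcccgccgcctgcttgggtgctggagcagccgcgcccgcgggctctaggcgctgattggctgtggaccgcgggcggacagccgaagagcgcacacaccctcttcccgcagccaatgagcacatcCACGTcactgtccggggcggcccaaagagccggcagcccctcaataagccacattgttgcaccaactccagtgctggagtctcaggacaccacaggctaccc
Pgk1: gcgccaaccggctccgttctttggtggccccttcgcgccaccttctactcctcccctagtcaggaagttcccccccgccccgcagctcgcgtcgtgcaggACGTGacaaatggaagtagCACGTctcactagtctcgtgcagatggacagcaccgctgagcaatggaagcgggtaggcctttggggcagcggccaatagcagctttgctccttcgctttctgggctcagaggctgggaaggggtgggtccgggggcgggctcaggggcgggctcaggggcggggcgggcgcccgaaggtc
Ldha: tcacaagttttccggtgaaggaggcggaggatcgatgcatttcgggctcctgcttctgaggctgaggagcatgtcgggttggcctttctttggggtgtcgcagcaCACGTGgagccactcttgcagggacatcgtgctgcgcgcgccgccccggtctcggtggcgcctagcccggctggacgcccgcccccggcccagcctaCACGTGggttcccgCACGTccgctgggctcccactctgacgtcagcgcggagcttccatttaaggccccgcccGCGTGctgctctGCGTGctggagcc

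Of the members that bring in and phosphorylate glucose, Slc2a1 and Hk2 moved in opposite directions between ctrl and medium. Slc2a1 (ENSMUSG00000028645, chr4:119108711-119137983, plus strand, GRCm38) encodes GLUT1, a plasma membrane glucose transporter. It stood at 18.0 and 19.9 CPM in medium, 35.5, 32.9 and 44.1 CPM in ctrl, 33.7, 35.3 and 22.2 CPM in Fer1, 35.1, 22.4 and 22.7 CPM in 4OHT+Fer1 and 31.2, 27.1 and 21.9 CPM in 4OHT. Both medium libraries were below every supernatant library, and the ctrl libraries were above every 4OHT library and overlapped with Fer1 and 4OHT+Fer1. Slc2a1 was 19.0 ± 1.33 CPM (SD, n = 2) in medium and 37.5 ± 5.86 CPM (SD, n = 3) in ctrl (log2 fold change -1.07, standard error 0.26, edgeR adjusted p = 0.0207 by Benjamini-Hochberg). Within replicate numbers 1 and 2, the log2 difference was -0.96 and -0.71. Between 4OHT and ctrl its log2 fold change was -0.51 (95% interval -0.99 to -0.04, edgeR adjusted p = 0.404 by Benjamini-Hochberg).

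Hk2 (ENSMUSG00000000628, chr6:82725025-82774454, minus strand, GRCm38) encodes the inducible hexokinase, which traps glucose in the cell as glucose 6-phosphate. It stood at 95.9 and 97.1 CPM in medium, 50.2, 51.9 and 56.4 CPM in ctrl, 48.9, 51.2 and 76.3 CPM in Fer1, 39.6, 55.3 and 75.7 CPM in 4OHT+Fer1 and 59.1, 62.7 and 72.9 CPM in 4OHT. The medium libraries were above every supernatant library, and in each of the 4 supernatant groups the library of replicate number 3 was the highest. Hk2 was 96.5 ± 0.875 CPM (SD, n = 2) in medium and 52.8 ± 3.20 CPM (SD, n = 3) in ctrl (log2 fold change 1.01, standard error 0.18, edgeR adjusted p = 0.00292 by Benjamini-Hochberg), with log2 differences of 0.93 and 0.90 within numbers 1 and 2. Against medium, 4OHT was lower (log2 fold change -0.72, standard error 0.18, edgeR adjusted p = 0.0411 by Benjamini-Hochberg). Against ctrl, 4OHT had a log2 fold change of 0.29 (95% interval -0.05 to 0.63, edgeR adjusted p = 0.575 by Benjamini-Hochberg). The other hexokinases passed no comparison with edgeR: Hk1, the constitutive form, was 69.6 ± 23.6 CPM in ctrl, 60.3 ± 8.56 CPM in 4OHT (SD, n = 3 each) and 67.1 ± 10.4 CPM in medium (SD, n = 2).

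In upper glycolysis, from glucose 6-phosphate to the triose phosphates, 1 of 8 members was called by edgeR with all libraries in medium against ctrl, and none in any other comparison. Aldoc (ENSMUSG00000017390, chr11:78322968-78327781, plus strand, GRCm38) encodes aldolase C, which splits fructose bisphosphate and is best known from brain. It stood at 20.4 and 21.5 CPM in medium, 64.3, 77.8 and 40.3 CPM in ctrl, 67.5, 67.5 and 59.9 CPM in Fer1, 34.7, 63.3 and 40.1 CPM in 4OHT+Fer1 and 36.7, 34.6 and 45.7 CPM in 4OHT. The medium libraries were the lowest, and the 4OHT libraries lay within the range of the 4OHT+Fer1 libraries except for 34.6 CPM, which was just below it. The mean was 21.0 ± 0.725 CPM (SD, n = 2) in medium and 60.8 ± 19.0 CPM (SD, n = 3) in ctrl (log2 fold change -1.58, standard error 0.28, edgeR adjusted p = 0.00314 by Benjamini-Hochberg), with log2 differences of -1.63 and -1.83 within numbers 1 and 2. In 4OHT against medium, Aldoc was called by DESeq2, and by edgeR with total counts for scaling or with all genes with a count in the test.

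In 4OHT against ctrl, Aldoc had a log2 fold change of -0.60 (95% interval -1.11 to -0.09, edgeR adjusted p = 0.356 by Benjamini-Hochberg), with log2 differences of -0.80, -1.16 and 0.18 within numbers 1 to 3. The positive value came from number 3, where ctrl 3 was the lowest ctrl library. Over the 8 members, log2 fold changes in 4OHT against ctrl ran from -0.60 in Aldoc to 0.52 in Pfkfb3, which makes the activator of phosphofructokinase. Pfkfb3 stood at 49.3, 44.9 and 32 CPM in 4OHT and 34.0, 29.9 and 24.1 CPM in ctrl, ranges that overlapped, and did not pass (edgeR adjusted p = 0.409 by Benjamini-Hochberg). The most abundant members of the group, Aldoa (aldolase A) and Gpi1 (glucose 6-phosphate isomerase), were 439.6 ± 286 and 215 ± 55.6 CPM in ctrl and 347 ± 209 and 220.3 ± 14.1 CPM in 4OHT (SD, n = 3 each).

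In lower glycolysis, which yields ATP and pyruvate, Pgk1 alone of 5 members was called by edgeR with all libraries, in medium against ctrl. Pgk1 (ENSMUSG00000062070, chrX:106187100-106203699, plus strand, GRCm38) encodes phosphoglycerate kinase, the first ATP-forming step. It stood at 125 and 124 CPM in medium, 258, 264 and 139 CPM in ctrl, 239, 268 and 153 CPM in Fer1, 175, 246 and 158 CPM in 4OHT+Fer1 and 167, 154 and 145 CPM in 4OHT. Medium was below every supernatant library, and number 3 was the lowest library in each supernatant group. The mean was 125 ± 0.764 CPM (SD, n = 2) in medium and 220.3 ± 70.5 CPM (SD, n = 3) in ctrl (log2 fold change -0.95, standard error 0.21, edgeR adjusted p = 0.0106 by Benjamini-Hochberg), with log2 differences of -1.04 and -1.08 within numbers 1 and 2.

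In 4OHT against ctrl, the log2 fold change of Pgk1 was -0.45 (95% interval -0.83 to -0.06, edgeR adjusted p = 0.361 by Benjamini-Hochberg), with log2 differences of -0.63, -0.77 and 0.06 within numbers 1 to 3. Of the other members, Pkm (pyruvate kinase M) was 462 ± 300.2 CPM in ctrl and 518 ± 154 CPM in 4OHT, and Pgam1 (phosphoglycerate mutase) was 299 ± 153 and 255 ± 38.5 CPM (SD, n = 3 each). These genes were among the most variable members between libraries of 1 group, and the 95% interval of Pkm in 4OHT against ctrl ran from -1.0 to 1.4 on the log2 scale. Within numbers 1 to 3 its log2 differences were -0.27, -0.35 and 1.65, so the sign of number 3 was opposite to that of the others. Across the 5 members, the median log2 fold change was -0.32 in 4OHT against ctrl and -0.77 in medium against ctrl.

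Eno1, enolase, is uncertain in these counts because most reads of the gene and its near-identical copy Eno1b were assigned to the copy. Eno1 held between 3.3% and 11% of the reads of both, and stood at 6.95 to 17.6 CPM, against 123 to 289 CPM for Eno1b. With the copies added to their members, Eno1 in medium against ctrl moved from a log2 fold change of -0.10 to -0.61 and did not pass in either case (edgeR adjusted p = 0.883 and 0.151 by Benjamini-Hochberg). The number of members called was the same with copies added in each of the 9 comparisons. Reads from opposite-strand neighbours may also add to Slc2a1 and Hk2, whose genes overlap Gm12867, Gm12868 and Gm17034, since the strand setting of the counting is not given in the sources used here. Aldoc, Pgk1, Ldha and Pdk1 overlap no other annotated gene.

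All 3 members of the pyruvate and lactate group had negative log2 fold changes in medium against ctrl and in 4OHT against ctrl. So had 26 and 25 of all 35 members in these comparisons. In medium against ctrl, 2 of the 3, Ldha and Pdk1, were called. Ldha (ENSMUSG00000063229, chr7:46841475-46855627, plus strand, GRCm38) encodes the lactate dehydrogenase subunit that turns pyruvate into lactate. It stood at 251 and 231 CPM in medium, 477, 401 and 289 CPM in ctrl, 442, 459.8 and 168 CPM in Fer1, 462, 353 and 251 CPM in 4OHT+Fer1 and 363, 261 and 164 CPM in 4OHT. In each supernatant group the library of number 3 was the lowest, and the Fer1 and 4OHT libraries of that number were below both medium libraries. The mean was 241 ± 14.7 CPM (SD, n = 2) in medium and 389 ± 94.5 CPM (SD, n = 3) in ctrl (log2 fold change -0.96, standard error 0.21, edgeR adjusted p = 0.0121 by Benjamini-Hochberg), with log2 differences of -0.92 and -0.79 within numbers 1 and 2. The fold change is adjusted for replicate number, and medium had no library of number 3, so it is not the ratio of these means. Over the alternative settings it ran from -1.09 to -0.69, with a Benjamini-Hochberg adjusted p (edgeR or DESeq2) of up to 0.479.

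Ldha had the smallest p of all members in 4OHT against ctrl, without passing the adjustment (log2 fold change -0.61, standard error 0.18, edgeR adjusted p = 0.154 by Benjamini-Hochberg). The log2 differences were -0.39, -0.62 and -0.81 within numbers 1 to 3, so that 4OHT was lower in 3 of 3, while the ranges of both groups overlapped. Set against 4OHT+Fer1, 4OHT had a log2 fold change of -0.47 (95% interval -0.86 to -0.07, edgeR adjusted p = 0.314 by Benjamini-Hochberg), and the interaction with Ferrostatin-1 was -0.68 (edgeR adjusted p = 0.663 by Benjamini-Hochberg). In 4OHT against ctrl, the adjusted p of Ldha lay between 0.0614 (DESeq2) and 0.937 (no replicate number in the model) over the alternative settings and between 0.10 and 0.866 with replicates left out.

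Pdk1 (ENSMUSG00000006494, chr2:71873224-71903858, plus strand, GRCm38) encodes the kinase that inactivates pyruvate dehydrogenase and so keeps pyruvate from the tricarboxylic acid cycle. It stood at 17.3 and 18.7 CPM in medium, 33.8, 28.5 and 31.5 CPM in ctrl, 29.1, 36.6 and 19.2 CPM in Fer1, 33.6, 24.3 and 18.4 CPM in 4OHT+Fer1 and 24.6, 22.4 and 21.8 CPM in 4OHT. All ctrl libraries were above all 4OHT and all medium libraries, and the 4OHT+Fer1 libraries overlapped with each of these groups. The mean was 18.0 ± 1.00 CPM (SD, n = 2) in medium and 31.3 ± 2.65 CPM (SD, n = 3) in ctrl (log2 fold change -0.93, standard error 0.25, edgeR adjusted p = 0.0336 by Benjamini-Hochberg), with log2 differences of -0.95 and -0.60 within numbers 1 and 2. Pdk1 did not pass in 4OHT against ctrl (log2 fold change -0.46, standard error 0.21, edgeR adjusted p = 0.460 by Benjamini-Hochberg). Slc16a3, the exporter of lactate, was 48.3 ± 13.8 CPM in ctrl, 38.1 ± 3.06 CPM in 4OHT (SD, n = 3 each) and 29.5 ± 1.61 CPM in medium (SD, n = 2), and passed no comparison with all libraries in the fit.

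**Figure D3:**
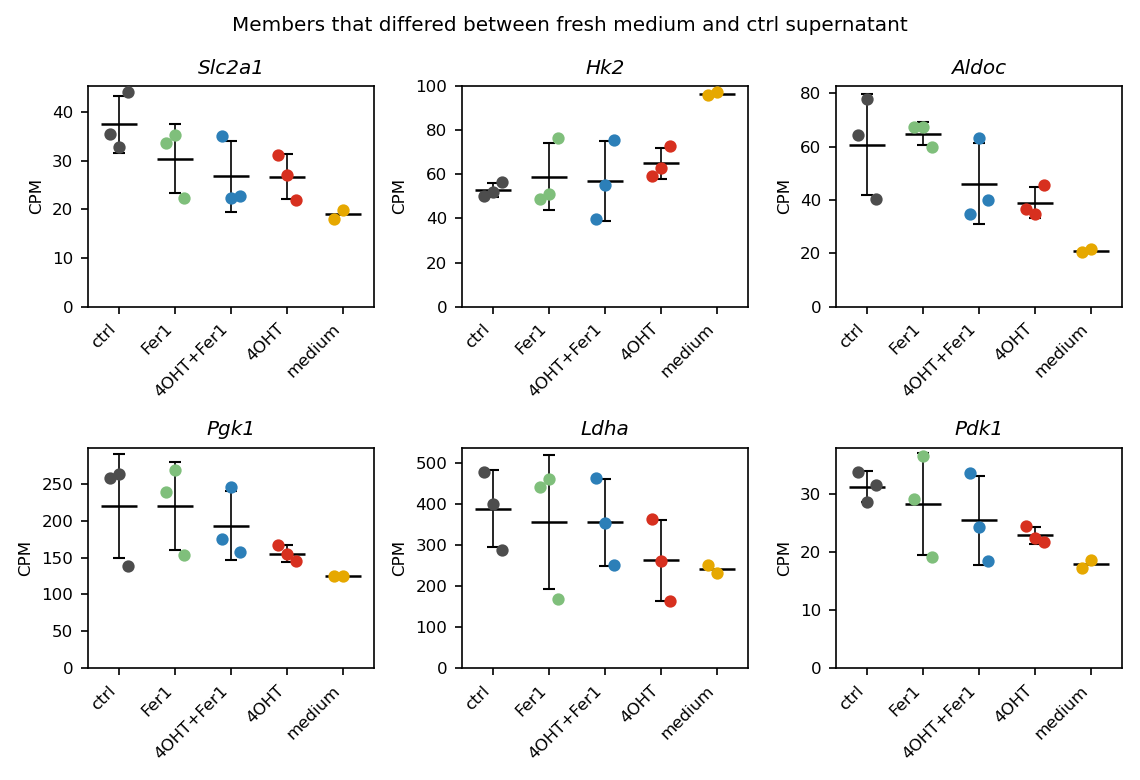
CPM (y axis, from 0) of the 6 members that differed between medium and ctrl, by supernatant (x axis); points are libraries, the long line the mean and the whiskers the SD. Medium sits at the bottom for Slc2a1 (18.0 and 19.9 CPM), Aldoc and Pgk1 and at the top for Hk2 (95.9 and 97.1 CPM), while for Ldha and Pdk1 it overlaps with single supernatant libraries.

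Hif1a itself and the genes of its oxygen-dependent control were called by edgeR in no comparison with all libraries in the fit. Hif1a stood at 99.9, 88.7 and 63.8 CPM in 4OHT, 52.3, 57.5 and 55.7 CPM in 4OHT+Fer1, 77.2, 71.3 and 63.6 CPM in ctrl, 62.7, 70.0 and 53.1 CPM in Fer1 and 73.8 and 76.5 CPM in medium. Every 4OHT library was above every 4OHT+Fer1 library, and 4OHT and ctrl overlapped. The difference between 4OHT and 4OHT+Fer1 did not pass with edgeR (log2 fold change 0.59, standard error 0.15, edgeR adjusted p = 0.0921 by Benjamini-Hochberg), while DESeq2 gave an adjusted p of 0.0131 by Benjamini-Hochberg. Without 4OHT 3 the edgeR log2 fold change was 0.71, and Hif1a passed. In 4OHT against ctrl the log2 fold change was 0.24 (95% interval -0.08 to 0.56).

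Egln1, the main prolyl hydroxylase that marks HIF, was 32.3 ± 2.98 CPM in ctrl, 26.6 ± 3.61 CPM in 4OHT (SD, n = 3 each) and 22.8 ± 2.40 CPM in medium (SD, n = 2), with a log2 fold change of -0.54 in medium against ctrl (edgeR adjusted p = 0.0964 by Benjamini-Hochberg). Vhl, the von Hippel-Lindau protein, varied least of all members within groups (SD 0.0987 on the log2 scale). Its 4OHT libraries (16.5, 18.3 and 16.5 CPM) were below all 9 live supernatant libraries (lowest 18.4 CPM) by a small margin, with a log2 fold change of -0.26 against the mean of the live supernatants (edgeR adjusted p = 0.397 by Benjamini-Hochberg). Egln3, itself a HIF target, stood between 0.381 and 2.33 CPM, close to the level of 3 counts.

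None of the 11 other HIF targets was called by edgeR in any comparison with all groups and libraries in the fit. Their log2 fold changes in 4OHT against ctrl ran from -1.25 in Ankrd37 to 0.40 in Hilpda, an inhibitor of lipolysis on lipid droplets, with 4 positive and 7 negative and a median of -0.16. The most abundant were Bnip3l, a mitophagy receptor, at 198 ± 48.3 CPM in ctrl and 204 ± 57.5 CPM in 4OHT, and Ndrg1 at 75.0 ± 10.9 and 86.5 ± 17.1 CPM (SD, n = 3 each). In medium against ctrl, 9 of the 11 were negative, from -2.01 in Ankrd37, and the highest was 1.13 in Adm, the vasodilator peptide adrenomedullin. Ankrd37 stood between 0.380 and 4.39 CPM and Adm between 0.127 and 2.15 CPM, so that both came down to about 3 counts or fewer in some libraries, and neither passed (edgeR adjusted p = 0.122 and 0.391 by Benjamini-Hochberg).

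Counted without a model, 6 members (Ndrg1, Aldoc, Pfkl, Slc2a1, Ankrd37 and Pgk1) were lower in both medium libraries than in all 9 live supernatant libraries, against 9.25% of all tested genes. Hk2 was the 1 member above all 9, against 9.1% of all genes. The 3 4OHT libraries were below all 9 for 2 members, Vhl and Pfkm (muscle phosphofructokinase), against 2.38% of all genes, and above all 9 for 0 members, against 0.965%. Pfkm stood at 5.16, 6.17 and 6.33 CPM in 4OHT and at 6.80 CPM or more in the live supernatants, with a log2 fold change of -0.46 against their mean (edgeR adjusted p = 0.249 by Benjamini-Hochberg).

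Some glycolytic enzymes varied strongly between libraries of 1 group, and others did not (within-group SD 0.166 on the log2 scale for Pfkm and 0.263 for Pfkl). The median within-group SD was 0.329 on the log2 scale over the members and 0.345 over all tested genes, but it was 0.867 for Pkm, 0.774 for Aldoa and 0.699 for Gapdh (glyceraldehyde 3-phosphate dehydrogenase). Gapdh stood at 174, 275 and 84.5 CPM in ctrl and 56.2, 234 and 138 CPM in 4OHT+Fer1. Pkm stood at 412, 784 and 190.4 CPM in ctrl and 152, 884 and 692 CPM in 4OHT+Fer1. Ctrl 3 and 4OHT+Fer1 1 were the lowest libraries of their groups for both genes.

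In ctrl 3 the median deviation from the group mean was -0.91 on the log2 scale over the 5 lower glycolysis members and -0.35 over the 8 upper ones, and in 4OHT+Fer1 1 it was -0.69 and -0.38. The same libraries had the lowest Actb of all 14, 5288 and 6419 CPM against 8695 CPM or more in the others, and the highest Malat1, a nuclear RNA, at 20266 and 16249.7 CPM against at most 12871 CPM. Their total counts, 8576780 and 9440972, lay within the range of the others. Ldha, Slc2a1 and Pdk1 were not low in 4OHT+Fer1 1, at 462, 35.1 and 33.6 CPM, the highest of that group.

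The replicate number moved with several members. Ldha, Pgk1 and Hk1 were lowest, and Hk2, Mxi1 and Hilpda highest, in number 3 in each of the 4 supernatant groups. The share of all genes with this pattern was not counted, and medium had no library of that number. The share of counts from mitochondrial genes was between 8.50% and 10.6% in the libraries of number 3 and between 4.53% and 7.77% in the others. What the numbers stand for beyond a replicate is not in the labels, and the part of this pattern in the members' levels was not tested.

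**Figure D4:**
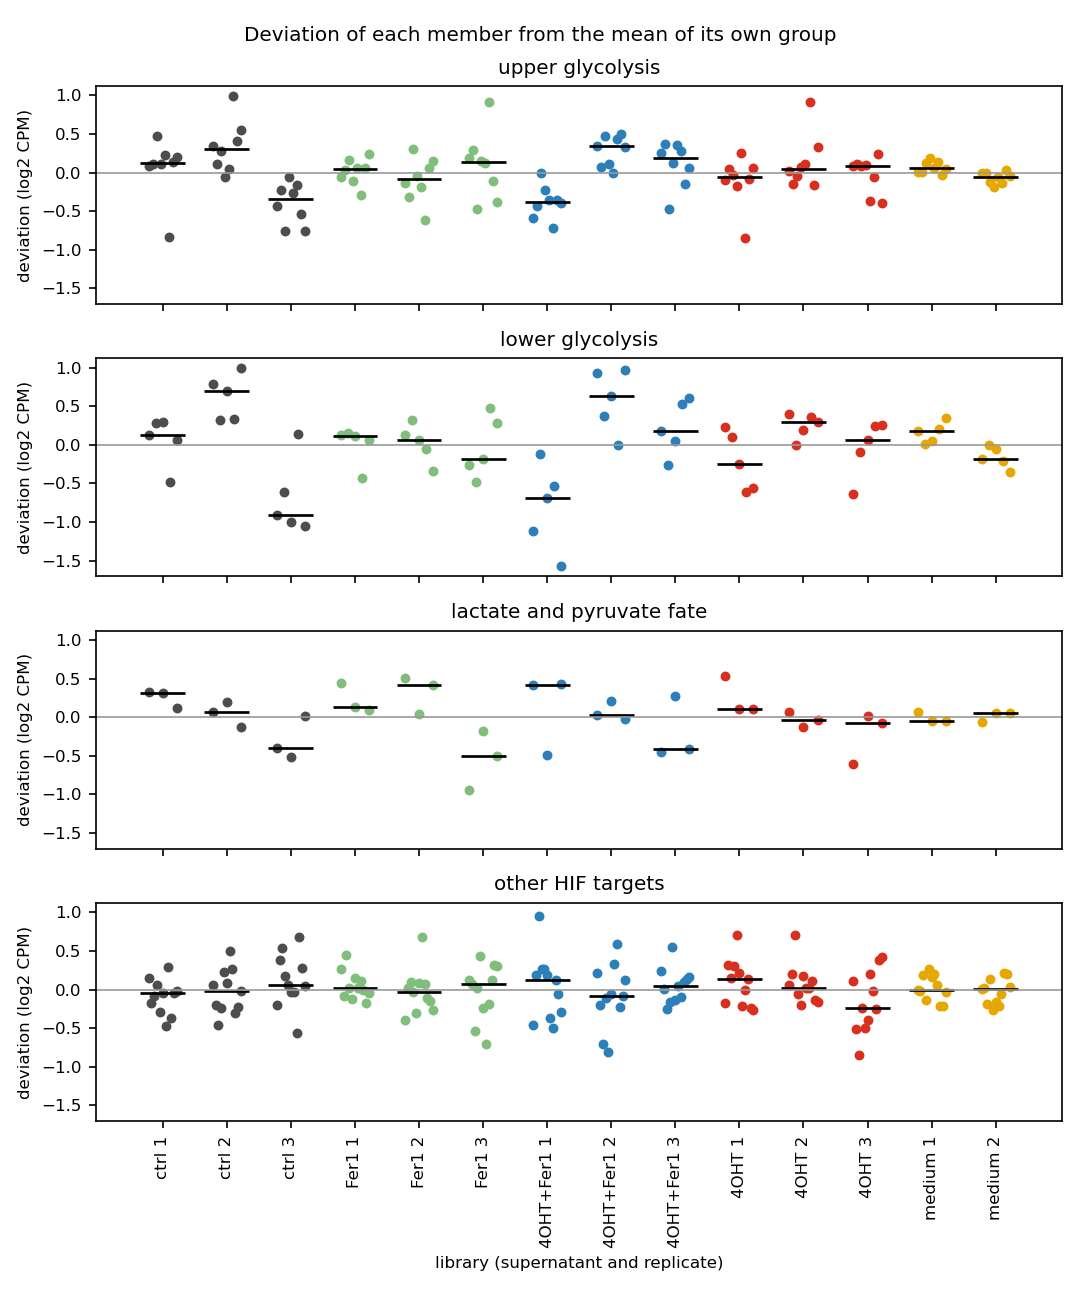
Deviation of each member from the mean of its own group in log2 CPM (y axis) in each library (x axis), by role; points are members and lines their median. The medians of ctrl 3 and 4OHT+Fer1 1 lie below 0 in upper and lower glycolysis (lower glycolysis -0.91 and -0.69). Among the other HIF targets their medians are 0.07 and 0.12. Single members there run from -0.56 (Higd1a) to 0.68 (Kdm3a) in ctrl 3 and from -0.49 (Higd1a) to 0.95 (Ankrd37) in 4OHT+Fer1 1.

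Other genes of the same pathways were set beside all tested genes, of which 1.49% were called in 4OHT against ctrl. Of 42 tested other HIF pathway and target genes, 1 was called in 4OHT against ctrl, Vegfa, the vascular endothelial growth factor, which was 9.66 ± 1.57 CPM in 4OHT, 3.58 ± 1.01 CPM in 4OHT+Fer1 and 39.4 ± 6.49 CPM in ctrl (SD, n = 3 each). Vegfa was also lower in 4OHT+Fer1 than in ctrl (log2 fold change -3.47, edgeR adjusted p = 0.000147 by Benjamini-Hochberg) and than in Fer1 (-3.14), and was higher in 4OHT than in 4OHT+Fer1 (log2 fold change 1.44, edgeR adjusted p = 0.0247 by Benjamini-Hochberg). In medium against ctrl, 6 of the 42 were called, 2 higher and 4 lower, where 10.9% of all genes were called. Lower were the transcriptional repressor Bhlhe41 (log2 fold change -2.62), Vegfb (-1.72), the glycogen regulator Ppp1r3b (-1.28) and Fam162a (-0.93). Among those higher was Rab20 (1.00). In 4OHT against medium, 4 were called, where 4.26% of all genes were called. Among the 4 were Vegfb and Bhlhe41, which were higher in 4OHT, and Vegfa, which was lower.

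Of 30 tested other glycolysis and pyruvate genes, 1 was called in medium against ctrl, where 10.9% of all genes were called. It was Pdk3, another pyruvate dehydrogenase kinase, which was higher in medium (log2 fold change 0.98, edgeR adjusted p = 0.0145 by Benjamini-Hochberg) where Pdk1 was lower. Of 12 tested pentose phosphate pathway genes, 2 were called, both lower in medium: Tkt, transketolase (-0.81), and Prps2, which makes the ribose donor of nucleotide synthesis (-0.75). None of 20 tested tricarboxylic acid cycle genes was called by edgeR in any of the 9 comparisons. At an unadjusted p under 0.05 there were 3 in medium against ctrl (3082 of all 12851 genes) and 3 in 4OHT against ctrl (10.8% of all genes). EdgeR called 0 genes of these last 3 lists in 4OHT against ctrl, where 1.49% of all genes were called. The median log2 fold changes of the 3 lists were -0.03, -0.01 and -0.00220.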

How the data were processed

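Libraries of pBMDM RNA covered transcript 3′ ends (QuantSeq, single-end reads). The authors aligned the reads with STAR 2.7.10a and quantified genes with Salmon 1.5.2, and the table they deposited holds Salmon's expected counts, not normalized, for each gene. The labels name both a human and a mouse genome build (GRCh38 and GRCm38), the study's methods a human one, and the deposited gene identifiers are those of mouse. The authors' table of their own DESeq2 1.36.0 comparisons (log2 fold changes, p-values and 14 per-sample columns of CPM) was not used.

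Counts were rounded (30109 values were not whole), scaled by TMM factors, which lay between 0.910 and 1.06, and tested with edgeR 4.0.16 (R 4.3.3, glmQLFit and glmQLFTest) in 1 model of all 14 libraries, with terms for group and for replicate number. The study's methods have the mouse in the design, and it was assumed that the numbers stand for mice. Genes were kept by filterByExpr with a minimum count of 10, which left 12851 of 55414, and called at a Benjamini-Hochberg adjusted p under 0.05 over all of them. Fold changes are estimates of this model, adjusted for replicate number, and need not equal the ratio of the group means. Standard errors and 95% intervals were derived from each fold change with its F statistic. Deviations and differences of log2 CPM used a prior count of 0.5. Replicate pairs differed by more than sampling noise (chi-square per degree of freedom 10.8 to 80.4), and nothing in the labels says that replicates are separate animals, so p-values measure the spread between these libraries. Reads without molecular identifiers may be PCR copies, so count limits cover counting error only.

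The members and lists were chosen with earlier results of these data known. Values in every library are given for each member called in at least 1 comparison and, as examples, for up to 2 of the most abundant others of a role, with mean and SD or library values. Genes of the pathway lists are named where called, except for an item that is not reported here. Other members named (Pfkfb3, Pfkm, Pfkl, Vhl, Egln3, Gapdh, Ankrd37, Adm, Hilpda, Mxi1 and those of single settings) were chosen after their values were seen. Gene positions are from GENCODE M21 (GRCm38), and promoter windows from RefSeq (GRCm38.p6), matched by symbol. The steps were tested on simulated counts. Alternatives were DESeq2 1.42.0, other scaling and filters, no replicate block, only the groups compared, a limit on the fold change, near-identical copies added to their members, and replicates or libraries left out.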

Additional observations from a re-analysis of the deposited data

How the results depend on the processing

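Under all alternatives tried, 0 members were called in 4OHT against ctrl, 4OHT+Fer1 against Fer1, 4OHT+Fer1 against ctrl, Fer1 against ctrl and the interaction, and none of the 18 fold changes of members recomputed under the alternatives reversed. Other counts moved. DESeq2 called 1 member in 4OHT against 4OHT+Fer1, 2 in 4OHT against the mean of the live supernatants and 2 in 4OHT against medium, where edgeR called 0, 0 and 1. Over all genes, DESeq2 called 392, 669 and 829 in these comparisons, where edgeR called 174, 379 and 548. In medium against ctrl, where 6 members were called, the count was 11 with only the groups compared in the fit, 3 with a limit on the fold change, and 1 without the replicate block. In 4OHT against medium it was 4 with only the groups compared, 0 with the limit and 0 without the block. With total counts for scaling or all genes with a count in the test, the 1 member called there was Aldoc in place of Hk2. Total counts moved the median log2 fold change of all genes to -0.11 in medium against ctrl and 0.10 in 4OHT against medium. Without ctrl 3 and 4OHT+Fer1 1, chosen after the data were seen, the counts were 12 in medium against ctrl, 3 in 4OHT against medium and 4 in 4OHT against the mean of the live supernatants. With single libraries or replicate numbers left out, counts ran from 0 to 9 in medium against ctrl, from 0 to 2 in 4OHT against medium, from 0 to 1 in 4OHT against 4OHT+Fer1 and from 0 to 3 in 4OHT against the mean of the live supernatants. Over all genes, 192 were called in 4OHT against ctrl, 405 with DESeq2, 325 with all genes with a count, 7 without the block and 0 with only the groups compared, and 1396 in medium against ctrl, 523 without the block and 2488 with only the groups compared. A medium group of 1 library was assumed to vary like the other groups. The causes of these changes were not tested.

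The replicate numbers were checked by the correlation of deviations from the group means. Of 26 same-number pairs, 21 were above 0.1 (lowest -0.0275, median 0.256, against -0.134 for other pairs), and 13 of 14 libraries correlated best with their own number, a hint from the data and not the design. The block changed the count of calls among members only in medium against ctrl and 4OHT against medium. Egln3, Ankrd37 and Adm came down to about 3 counts in some libraries, where differences were not detectable at this depth.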
